A study of Mus musculus with 24 samples.

Results

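The comparison of R6/2 with wild-type cortex at 12 weeks of age rests on 6 of the 24 libraries of the series. The R6/2 group held 3 libraries of brain cortex from R6/2 transgenic mice, and the wild-type group held 3 libraries of the same tissue from their wild-type littermates, all on a C57Bl/6 / CBA background and all 12 weeks old. The labels name no drug or other treatment, no sex and no repeat length. R6/2 mice carry the first exon of human huntingtin with a long CAG repeat, driven by the human promoter, in addition to their own intact Htt genes, so the line models a short mutant fragment and not the full-length mutant protein. The members of the comparison are these 6 libraries, and the values are read counts and RPKM, which are reads scaled to the length of the gene and the size of the library, for 11772 of 18669 genes, those whose RPKM averaged 0.5 or more across the 6 libraries. Cortex at 8 weeks and striatum at 12 weeks, with 3 R6/2 and 3 wild-type libraries each, served to show where the cortex at 12 weeks differed.

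Huntington's disease is caused by an expanded CAG repeat in huntingtin and is known above all for the loss of striatal projection neurons, but the cortex is affected as well. Cortical pyramidal neurons send excitatory input and the growth factor BDNF to the striatum, and their activity is shaped by local inhibitory interneurons that also release neuropeptides. Neurons respond to activity within minutes by switching on immediate early genes, whose products in turn control slower sets of synaptic genes. R6/2 mice show tremor, weight loss and loss of motor control well before death, and 12 weeks is a late stage of their disease.

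Total counts in genes were 30635725, 47684796 and 22847630 in R6/2 replicates 1 to 3 and 26508946, 17015220 and 18890382 in wild-type replicates 1 to 3. On the leading principal component, which held 41.2% of the variance of log2 counts scaled to library size, the 3 R6/2 libraries lay apart from the 3 wild-type libraries. R6/2 replicate 1 stood apart on the next component (22.4% of the variance). Summed over the 5 striatal genes Drd1, Drd2, Adora2a, Rgs9 and Pde10a, chosen after their values were seen, RPKM was 45.0, 21.7 and 16.9 in R6/2 and 35.0, 24.4 and 52.1 in wild type, and 396 to 630.5 in wild-type striatum at 12 weeks. All 6 libraries therefore read as cortex on this measure, with the highest sums in R6/2 replicate 1 and wild-type replicate 3. The cortical markers Slc17a7 (111, 100.4 and 100.1 RPKM in R6/2, 152, 122 and 102 in wild type), a vesicular glutamate transporter, and Tbr1 (24.7, 15.7 and 21.2 and 30.02, 28.2 and 22.0), a deep layer transcription factor, were present in each library. R6/2 replicate 2 had the highest sum of 13 meningeal and fibroblast markers (244, 842 and 277 RPKM in R6/2, 431, 135 and 376 in wild type), R6/2 replicate 3 the highest level of the choroid plexus gene Ttr, and wild-type replicate 3 the highest level of the dentate gyrus gene C1ql2. Of 8 piriform and claustrum markers Ntng2 fell (-0.91, SE 0.20, adjusted p = 0.0259; not without R6/2 replicates 2 or 3 or wild-type replicates 1 or 3, adjusted p = 0.0818, 0.102, 0.0966 and 0.0866), of 10 thalamic markers Tnnt1 fell (of the fits without a library, it passed only in the one without R6/2 replicate 2), and of 3 blood markers tested none passed by edgeR (0 at an unadjusted p under 0.05, 0 by DESeq2 and limma).

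The transgene insertion gene checked the labels. Gm12695, the known insertion site of the transgene, held 115, 147 and 63 counts in the R6/2 libraries and 0 in each wild-type library, at least 66.8-fold higher against a floor of 3 counts over the wild-type group (adjusted p = 0.00147). Mouse Htt, the endogenous huntingtin gene, had 16.8, 14.5 and 13.2 RPKM in R6/2 and 14.6, 9.65 and 10.3 in wild type, and the groups overlapped (a log2 fold change of 0.23, SE 0.17, adjusted p = 0.536). Hap1, which encodes a huntingtin-binding protein, had 36.3, 29.7 and 32.9 RPKM against 22.6, 18.4 and 37.5, also with overlap (0.19, SE 0.23, adjusted p = 0.733).

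Of the 11772 genes, 79 were higher in R6/2 (0.671%) and 429 were lower (3.64%), so 84.4% of the 508 genes past the threshold were lower (edgeR's quasi-likelihood test, adjusted p under 0.05). At least 2-fold changes were reached by 42 of the higher and 216 of the lower genes, and at least 4-fold changes by 11 and 46. The median wild-type level was 12.5 RPKM for the genes that fell, 7.11 RPKM over all genes tested and 2.64 RPKM for the genes that rose. In R6/2 these medians were 6.55, 7.79 and 5.42 RPKM. Each group's level enters the call itself, so neither side alone describes how strongly these genes were expressed. Over all genes tested, the median log2 fold change was 0.01. The 3 R6/2 RPKM values lay all above the 3 wild-type values for 20.2% of genes tested and all below for 7.54%. These RPKM are scaled to the library total that the authors used, and a fit on that total shifts the median of all genes to 0.14 and gives 115 higher and 227 lower genes, 66.4% of them lower.

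**Figure D1:**
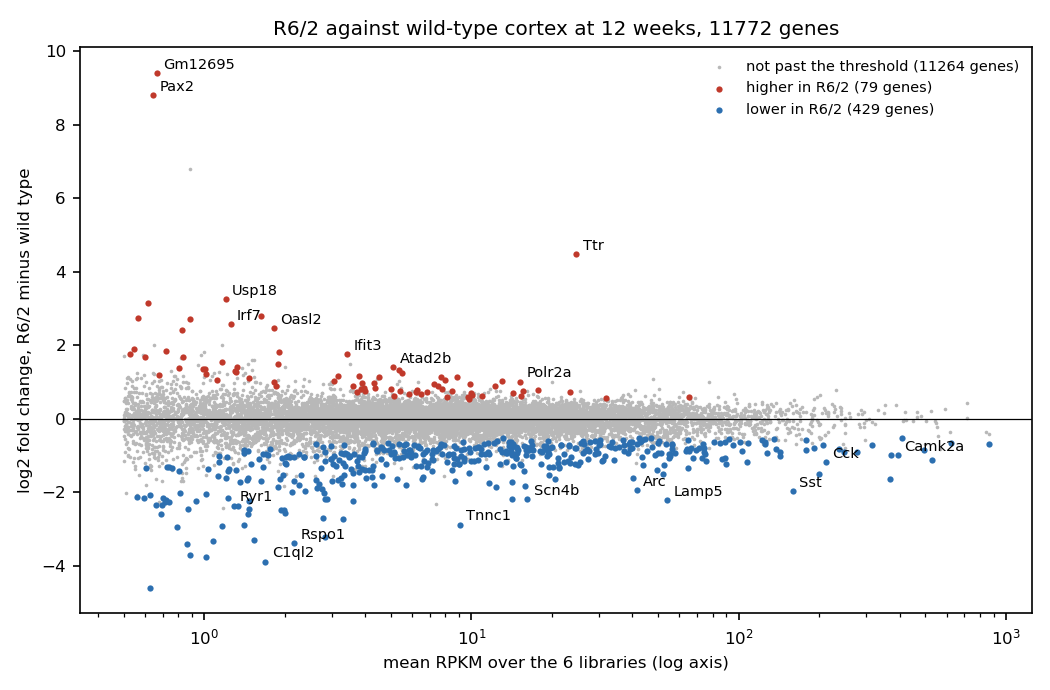
Log2 fold change of R6/2 against wild-type cortex at 12 weeks (vertical axis) against mean RPKM over the 6 libraries (horizontal log axis), with each point a gene. The 429 genes that fell (blue) reach into the most abundant transcripts, while the 79 that rose (red) include Gm12695 and Pax2, which had 0 counts in wild type and whose fitted values therefore depend on the prior count.

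How far these calls rest on single libraries was read by leaving out each library in turn. The count of lower genes ranged from 183 without R6/2 replicate 3 to 553 without R6/2 replicate 1, and the count of higher genes from 24 without wild-type replicate 1 to 172 without R6/2 replicate 1. The lower counts without R6/2 replicate 2 (221), wild-type replicate 1 (184) and wild-type replicate 2 (238) and the higher counts without R6/2 replicates 2 and 3 (34 and 30) and wild-type replicates 2 and 3 (32 and 43) also moved by more than 1.5 times. Of the 508 genes, 158 passed in all 6 of these fits (17 higher and 141 lower), and no gene of the 508 changed sign in any of them. Genes below are called stable to leaving out a library where they passed in all 6.

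Immediate early genes were lower in R6/2. Of 17 such genes tested, 8 fell (47.1%, against 3.64% of all genes), and the median log2 fold change of the 17 was -0.97. Arc, which moves to active synapses and removes glutamate receptors from them, had 17.6, 15.6 and 22.2 RPKM in R6/2 and 62.7, 68.9 and 62.7 in wild type (a log2 fold change of -1.96, SE 0.17, adjusted p = 0.000759). All 3 R6/2 libraries lay well under the lowest wild-type library. Egr2, a zinc finger transcription factor, had 0.478, 0.651 and 0.239 against 2.55, 2.39 and 1.70 RPKM (-2.39, SE 0.35, adjusted p = 0.00441), and its relative Egr3 had 12.7, 8.41 and 10.7 against 45.6, 26.4 and 19.5 RPKM (-1.65, SE 0.27, adjusted p = 0.00654). Neither gene's groups overlapped, although wild-type Egr3 spread widely. Npas4, an activity-dependent factor that sets inhibitory synapse number, had 2.36, 2.29 and 1.38 against 5.76, 3.76 and 6.05 RPKM (-1.49, SE 0.24, adjusted p = 0.00603). Homer1, whose short form loosens the postsynaptic scaffold, had 42.0, 40.6 and 37.8 against 77.9, 70.3 and 63.2 RPKM (-0.97, SE 0.16, adjusted p = 0.00654). These 5 genes were stable to leaving out a library. The orphan nuclear receptor Nr4a1 (-1.01, SE 0.18, adjusted p = 0.0106) passed except without wild-type replicate 1 (adjusted p = 0.0568).

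Btg2 and Ier5, 2 growth-related early genes, completed the 8, with log2 fold changes of -1.29 and -1.002. Btg2 did not pass without R6/2 replicates 2 or 3 or wild-type replicates 1 or 3 (adjusted p = 0.0594, 0.0787, 0.0507 and 0.0539), and Ier5 did not pass without R6/2 replicates 2 or 3 or wild-type replicates 1 or 2 (0.104, 0.127, 0.156 and 0.145). The best known members did not pass. Egr1 had 45.5, 56.0 and 53.7 against 88.2, 82.9 and 51.2 RPKM, with overlap (-0.66, SE 0.20, adjusted p = 0.0990). Fos had 6.90, 5.78 and 5.19 against 9.11, 7.60 and 8.05 RPKM, without overlap (-0.60, SE 0.17, adjusted p = 0.0716). Over the list, the number that fell ranged from 5 without wild-type replicate 1 to 12 without R6/2 replicate 1.

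Promoters of the 8 genes that fell were read from RefSeq (GRCm38.p6) for the 250 bases before each annotated start, where 6 of the 8 had an entry. These windows are shown because immediate early genes are known to be switched on through the cAMP response element, the serum response element and the EGR site. The core of the cAMP response element, TGACG on either strand, lay in a window of 5 of the 6 genes, and in 19.8% of all genes with a window. Over all 13 tested immediate early genes with a window 11 held it, so it was not limited to those that fell, and the 6 genes had 11 windows between them, since some have several starts. The full element TGACGTCA, which contains the core on both strands, lay only in the Btg2 window among the 6 genes (1.77% of all genes). The EGR site, GCGNGGGCG on either strand, lay in the Nr4a1 and Btg2 windows (5.33% of all genes), and the serum response element was found for Egr2, 72 to 63 bases before its second listed start, as CCTTTTTTGG, and before later starts as CCATATATGG (1.62% of all genes). A match describes letters in the window, not a bound site. In the windows below, in GRCm38.p6 and written 5′ to 3′ along the gene, capitals mark these motifs; the Nr4a1 window holds 4 cores and an EGR site, and the Homer1 window 3 cores.
Nr4a1, chr15:101266596-101266845, plus strand: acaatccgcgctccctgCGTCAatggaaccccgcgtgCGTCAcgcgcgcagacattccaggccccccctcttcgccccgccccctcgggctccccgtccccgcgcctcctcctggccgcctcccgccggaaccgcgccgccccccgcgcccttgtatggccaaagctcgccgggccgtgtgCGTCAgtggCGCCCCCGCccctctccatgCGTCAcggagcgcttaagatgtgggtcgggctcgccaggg
Homer1, chr13:93303507-93303756, plus strand: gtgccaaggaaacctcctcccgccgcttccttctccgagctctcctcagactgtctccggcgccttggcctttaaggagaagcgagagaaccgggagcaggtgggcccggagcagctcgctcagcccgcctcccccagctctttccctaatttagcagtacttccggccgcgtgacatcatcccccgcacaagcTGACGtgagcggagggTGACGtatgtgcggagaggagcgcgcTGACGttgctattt

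Later genes of the activity response, mostly secreted or synaptic proteins, were lower as well: 7 of 27 tested fell (25.9%), with a median of -0.67. Nptxr, a receptor for neuronal pentraxins that gather AMPA receptors, had 94.2, 90.1 and 94.2 RPKM in R6/2 and 189.5, 136 and 162 in wild type (a log2 fold change of -0.94, SE 0.13, adjusted p = 0.00371). Nrn1, a membrane-anchored growth protein, had 43.4, 60.8 and 67.3 against 117, 129.6 and 121 RPKM (-1.247, SE 0.18, adjusted p = 0.00405), and Trib1, a pseudokinase, had 2.16, 2.08 and 1.51 against 4.85, 4.80 and 3.28 (-1.30, SE 0.22, adjusted p = 0.00776). The 3 genes were stable to leaving out a library, with no overlap between groups. The G protein regulator Rgs4 (-0.90, SE 0.17, adjusted p = 0.0123) did not pass without R6/2 replicate 3 (adjusted p = 0.0580), and the sorting receptor Sorcs3 (-0.79, SE 0.15, adjusted p = 0.0117) did not pass without R6/2 replicate 2 (0.0585). Nptx1 had 46.1, 48.9 and 49.8 against 67.1, 69.9 and 54.4 RPKM and did not pass (-0.54, SE 0.15, adjusted p = 0.0692). The number of the 27 that fell ranged from 4 without R6/2 replicate 3 to 12 without wild-type replicate 3.

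Bdnf, the neurotrophin that cortex supplies to the striatum, had 3.91, 4.32 and 5.17 RPKM in R6/2 and 7.27, 8.58 and 6.08 in wild type (a log2 fold change of -0.86, SE 0.19, adjusted p = 0.0290). The groups did not overlap, but the call was lost without R6/2 replicate 2 (adjusted p = 0.100), R6/2 replicate 3 (0.0580), wild-type replicate 1 (0.0786) or wild-type replicate 2 (0.101). Of 21 trophic factors and receptors tested, 5 fell. Gfra2, the receptor of neurturin, was lowest relative to wild type, at 3.84, 5.69 and 7.67 against 21.6, 20.9 and 14.3 RPKM, and was stable to leaving out a library (-1.87, SE 0.25, adjusted p = 0.00280). The other members were Sorcs3, Igfbp4 and Fgf9, with log2 fold changes of -0.79, -1.31 and -0.87. Ntrk2, the receptor of BDNF, had 59.0, 53.7 and 55.3 against 64.9, 51.9 and 75.6 RPKM and did not pass (-0.34, SE 0.15, adjusted p = 0.276). The count of 5 dropped to 2 without R6/2 replicate 2 or without wild-type replicates 1 or 2, and to 3 without R6/2 replicate 3.

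Neuropeptides were among the groups with the most falls, 9 of 24 tested (37.5%), with a median of -0.89. Somatostatin (Sst), a peptide of dendrite-targeting interneurons, had 80.1, 57.7 and 68.0 RPKM in R6/2 and 248, 121 and 379.7 in wild type (a log2 fold change of -1.98, SE 0.31, adjusted p = 0.00562). The wild-type values varied widely among themselves, yet the lowest of them lay above all R6/2 values. Vip, made by interneurons that inhibit other interneurons, had 6.21, 7.20 and 7.50 against 18.8, 16.4 and 11.7 RPKM (-1.31, SE 0.20, adjusted p = 0.00503). Cholecystokinin (Cck), made by basket cells and by many pyramidal cells, had 128, 164 and 124 against 336, 254 and 266 RPKM (-1.18, SE 0.16, adjusted p = 0.00272). Crhbp, which binds corticotropin-releasing hormone, had 3.75, 4.73 and 6.42 against 13.2, 10.3 and 12.3 RPKM (-1.41, SE 0.20, adjusted p = 0.00425). These 4 genes were stable to leaving out a library.

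The other 5 neuropeptide genes passed by smaller margins. Npy, neuropeptide Y, had 36.0, 58.3 and 55.7 against 96.5, 70.4 and 136 RPKM (-1.16, SE 0.23, adjusted p = 0.0186) and did not pass without wild-type replicates 1 or 3 (adjusted p = 0.0594 and 0.0539). Crh, Vgf, Cartpt and Penk had log2 fold changes of -1.54, -0.91, -1.77 and -1.41. Penk, the enkephalin precursor, is also abundant in striatum, and its groups overlapped, with 42.9, 25.6 and 17.4 against 69.7, 39.8 and 101 RPKM and the highest values in R6/2 replicate 1 and wild-type replicate 3, the libraries with the highest striatal sums. The part of striatal tissue in this result was not tested. The number of neuropeptides that fell ranged from 4 without wild-type replicate 1 to 11 without R6/2 replicate 1, and was 5 without R6/2 replicate 3. Scg2, a secretory granule protein, had 68.6, 59.8 and 48.3 against 70.0, 69.2 and 61.5 RPKM and did not pass (-0.32, SE 0.16, adjusted p = 0.347).

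Genes shared by all cortical interneurons changed less than the subtype peptides. Of 13 interneuron identity genes tested, 2 fell, with a median of -0.31. Gad1, which makes most neuronal GABA, had 58.5, 47.7 and 36.9 against 87.9, 72.8 and 77.7 RPKM (-0.88, SE 0.18, adjusted p = 0.0178). The call was lost without R6/2 replicate 2, R6/2 replicate 3, wild-type replicate 1 or wild-type replicate 2 (adjusted p = 0.0668, 0.0772, 0.0774 and 0.0611), and no gene of the 13 fell without R6/2 replicate 2, R6/2 replicate 3 or wild-type replicate 1. Slc32a1, the vesicular GABA transporter, had 25.1, 23.3 and 26.6 against 25.2, 20.6 and 23.4 RPKM, with wide overlap (-0.02, SE 0.13, adjusted p = 0.971). Gad2, the synaptic enzyme, had 29.4, 20.7 and 21.04 against 26.2, 23.6 and 26.8 RPKM (-0.24, SE 0.17, adjusted p = 0.496). In bulk tissue, fewer cells of a type and less RNA per cell cannot be told apart.

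Of 19 interneuron subtype genes tested, 6 fell (31.6%, median -0.66), and 5 of them are the peptides Cck, Vip, Sst, Npy and Crh. The other was Lamp5, a membrane protein of neurogliaform interneurons and of superficial pyramidal neurons, with 13.6, 26.7 and 22.3 RPKM in R6/2 and 92.9, 99.9 and 69.5 in wild type (a log2 fold change of -2.22, SE 0.24, adjusted p = 0.00147). Every R6/2 library lay far below the wild-type range, and the gene was stable to leaving out a library. Parvalbumin (Pvalb), of fast-spiking basket cells, had 14.9, 37.3 and 44.6 against 43.3, 57.6 and 53.6 RPKM and did not pass (-0.84, SE 0.32, adjusted p = 0.193). The number of subtype genes that fell ranged from 4 without wild-type replicate 1 to 9 without R6/2 replicate 1, with 6 over all libraries.

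**Figure D2:**
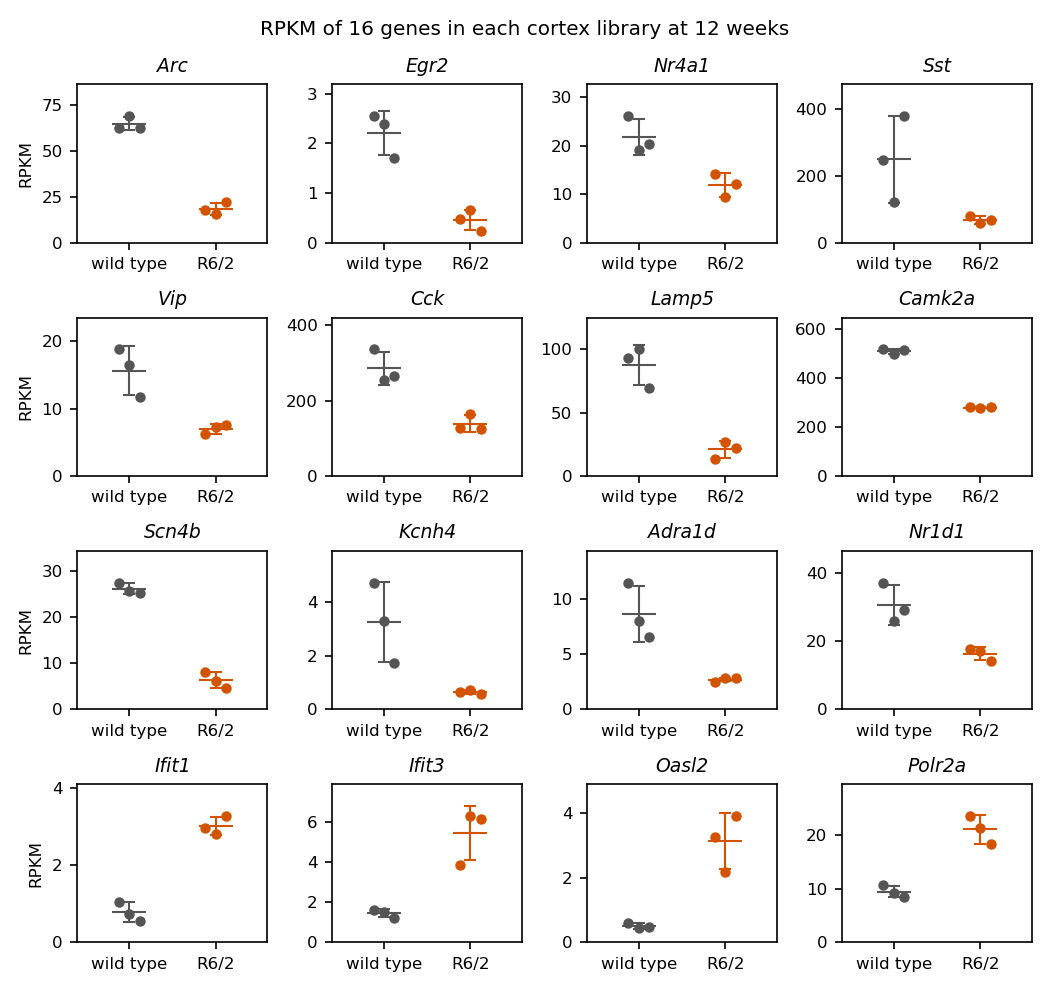
RPKM of 16 genes (vertical axes, each from 0) in the 3 wild-type and 3 R6/2 cortex libraries at 12 weeks, with points for libraries, horizontal lines for means and bars for the SD. For 12 genes the R6/2 libraries lie below the wild-type range, and for Ifit1, Ifit3, Oasl2 and Polr2a they lie above it.

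Genes of projection neurons were read in lists by layer, and a difference between these lists was not tested. Of 15 upper layer genes tested 4 fell (median -0.51), and of 19 deep layer genes 2 fell (median -0.26). The counts are small, and in cortex at 8 weeks the medians of the 2 lists were -0.61 and -0.56. Rspo1, a secreted enhancer of Wnt signalling listed as a superficial layer gene, had 0.348, 0.404 and 0.498 RPKM in R6/2 and 4.41, 4.56 and 2.79 in wild type (a log2 fold change of -3.39, SE 0.30, adjusted p = 0.000759). Its R6/2 values were all under 0.5 RPKM, a range no wild-type library came near. Pou3f1, a POU-domain transcription factor, had 4.66, 3.78 and 3.96 against 7.92, 8.82 and 11.6 RPKM (-1.33, SE 0.19, adjusted p = 0.00405). Rspo1, Pou3f1 and Lamp5 were stable to leaving out a library. Rasgrf2, an exchange factor for Ras, had 13.4, 11.2 and 11.9 against 21.1, 20.6 and 17.9 RPKM (-0.86, SE 0.15, adjusted p = 0.0107) and was lost without R6/2 replicates 2 or 3 (adjusted p = 0.0585 and 0.0580).

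The deep layer genes that fell were Fezf2, which specifies subcortical projection neurons (2.17, 2.83 and 2.40 against 4.57, 3.98 and 4.57 RPKM, -0.96, SE 0.19, adjusted p = 0.0155), and Ldb2 (-0.64, SE 0.14, adjusted p = 0.0306). Fezf2 was not called without R6/2 replicate 3 or wild-type replicate 1 (adjusted p = 0.0707 and 0.0606), and Ldb2 was called only when R6/2 replicate 1 was left out. The class-defining factors did not pass. Cux2, of upper layers, had 13.1, 12.9 and 14.4 against 21.1, 16.7 and 14.4 RPKM (-0.51, SE 0.16, adjusted p = 0.0968), Bcl11b, of subcortical projection neurons, 14.7, 9.22 and 7.73 against 12.0, 10.8 and 14.1 (-0.35, SE 0.22, adjusted p = 0.459), and Tbr1 a log2 fold change of -0.52 (adjusted p = 0.182).

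Some genes of calcium-dependent signalling in excitatory neurons fell. Of 14 excitatory neuron genes tested 5 fell (35.7%, median -0.47), and all 5 were stable to leaving out a library. Camk2a, the calcium/calmodulin kinase that is central to synaptic plasticity, had 280.4, 275 and 281 RPKM in R6/2 and 516, 496 and 514 in wild type (a log2 fold change of -1.005, SE 0.12, adjusted p = 0.00180). The libraries within each group differed by a few percent, and the groups were far apart. Nrgn, neurogranin, which holds calmodulin at rest, had 305, 341 and 429.7 against 689, 788 and 634 RPKM (-1.12, SE 0.17, adjusted p = 0.00503). Itpka, a kinase that removes the calcium-releasing messenger IP3, had 17.9, 19.6 and 26.7 against 65.7, 57.4 and 54.0 RPKM (-1.61, SE 0.17, adjusted p = 0.00138). Nrn1, described above, and Dgkz, a diacylglycerol kinase (-1.06, SE 0.17, adjusted p = 0.00588), were the others.

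Over the whole calcium signalling list, 12 of 36 tested fell (33.3%, median -0.44). Ryr1, a calcium release channel of internal stores, had 0.476, 0.498 and 0.394 RPKM in R6/2 and 2.14, 2.08 and 2.15 in wild type (a log2 fold change of -2.37, SE 0.17, adjusted p = 0.000194). The spread inside each group was small beside a difference of 5.17-fold. Ryr1, under 0.5 RPKM in every R6/2 library, was tested only because of its wild-type values. Itpr1, the IP3 receptor, had 53.2, 60.6 and 58.8 against 93.0, 93.4 and 86.4 RPKM (-0.81, SE 0.13, adjusted p = 0.00585). Camk1g, a calcium/calmodulin kinase, had 5.23, 5.92 and 6.88 against 13.6, 11.0 and 10.3 RPKM (-1.10, SE 0.17, adjusted p = 0.00522), and Camkk2, a kinase that activates the CaMK family, 24.1, 29.3 and 30.4 against 59.1, 75.6 and 43.7 (-1.254, SE 0.21, adjusted p = 0.00833). With Camk2a and Itpka these were the 6 stable members. Among the others were Camkk1, Camkv, Ppp3ca, Atp2b2 and Camk4, with log2 fold changes of -0.64, -0.63, -0.72, -0.71 and -0.75, and the number was 6 without R6/2 replicate 2 or replicate 3. Calm3 had 367, 631 and 616 against 512, 559.7 and 627 RPKM and did not pass (-0.22, SE 0.20, adjusted p = 0.620), nor did Camk2b (39.9, 28.4 and 33.9 against 50.5, 29.8 and 34.8, -0.30, SE 0.19, adjusted p = 0.456).

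A list of genes of striatal projection neurons was read in cortex as well, at cortical levels. Its members are not all particular to those neurons, and Ryr1 and Itpr1 are also in the calcium signalling list. Of 30 tested, 7 fell (23.3%, median -0.34). Scn4b, a sodium channel beta subunit, had 8.11, 6.05 and 4.62 RPKM in R6/2 and 27.5, 25.7 and 25.2 in wild type (a log2 fold change of -2.19, SE 0.20, adjusted p = 0.000844). Ppp1r1b, which encodes the phosphatase inhibitor DARPP-32, had 42.9, 23.5 and 20.95 against 63.9, 62.9 and 99.3 RPKM (-1.51, SE 0.28, adjusted p = 0.0121), and Arpp19, a phosphatase inhibitor as well, had 86.3, 131 and 124 against 202, 394 and 261 (-1.51, SE 0.27, adjusted p = 0.0110). None of the 3 overlapped between groups, and with Ryr1 and Itpr1 they were stable to leaving out a library. The other members were Penk and Arpp21 (-0.58).

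The striatal receptors did not pass in cortex. Drd1 had 7.56, 2.43 and 3.56 against 5.11, 3.79 and 4.65 RPKM (-0.13, SE 0.33, adjusted p = 0.887), Drd2 5.70, 2.07 and 0.530 against 3.49, 1.89 and 5.90 (-0.55, SE 0.63, adjusted p = 0.713) and Adora2a, an adenosine receptor, 5.71, 1.88 and 1.55 against 4.32, 2.01 and 7.16 (-0.67, SE 0.49, adjusted p = 0.533). R6/2 replicate 1 was highest in its group for each of the 3. Without it, 12 of the 30 fell and the median was -0.71, and without wild-type replicate 3 the median was -0.17 with 5 falls. The amount of striatal tissue in these 2 libraries was not tested.

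Of 51 potassium channel genes tested, 11 fell (21.6%, median -0.48). Kcnh4, a slowly gating channel of the ether-a-go-go family, had 0.634, 0.705 and 0.567 RPKM in R6/2 and 4.73, 3.32 and 1.72 in wild type (a log2 fold change of -2.49, SE 0.32, adjusted p = 0.00250). Its relative Kcnh3 had 16.1, 14.8 and 15.3 against 46.6, 26.1 and 27.1 RPKM (-1.24, SE 0.19, adjusted p = 0.00556). Kcnk4, a background leak channel, had 1.33, 1.19 and 1.04 against 5.66, 4.66 and 2.97 RPKM (-2.04, SE 0.28, adjusted p = 0.00345). Kcnab3, a beta subunit, had 7.08, 11.6 and 10.7 against 21.3, 22.3 and 18.1 RPKM (-1.23, SE 0.20, adjusted p = 0.00588). No R6/2 library of these 4 genes reached the wild-type range, and they were stable to leaving out a library. Kcna1, Kcnj16, Kcns1, Kcnip3, Kcnip2 and Kcnj10 also fell, and the number dropped to 5 without R6/2 replicate 3 or wild-type replicate 2 and to 7 without R6/2 replicate 2 or wild-type replicate 1. Kcnab2, an abundant beta subunit, had 72.3, 96.3 and 107 against 108, 96.6 and 122 RPKM and did not pass (-0.39, SE 0.16, adjusted p = 0.232).

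Sodium and calcium channel genes were read with auxiliary subunits included. Falls made up 8.33% and 4.76% of those tested, against 3.64% of all genes, and rises 8.33% and 0%, against 0.671%. Each share above 0 rests on 1 gene, so these are not read as results about the families. Of 12 sodium channel genes tested, Scn4b fell and Scn9a rose. Scn9a, a channel known from sensory neurons, had 1.30, 0.557 and 0.764 against 0.177, 0.129 and 0.338 RPKM (1.90, SE 0.39, adjusted p = 0.0204) and did not pass without wild-type replicates 1 or 2 (adjusted p = 0.107 and 0.0954). Its wild-type values were all under 0.5 RPKM, so it was tested only because of its R6/2 values. Scn2a, the main channel of excitatory axons, had 51.4, 47.5 and 47.3 against 41.8, 47.2 and 35.8 RPKM (0.08, SE 0.16, adjusted p = 0.846). Of 21 calcium channel genes, only Cacng3 fell (-0.90, SE 0.19, adjusted p = 0.0233), a call lost without R6/2 replicates 2 or 3 or wild-type replicates 1 or 2 (adjusted p = 0.104, 0.0609, 0.0944 and 0.0706). Cacnb3 had 56.4, 67.2 and 62.7 against 94.7, 60.4 and 78.5 RPKM and did not pass (-0.46, SE 0.15, adjusted p = 0.131).

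Receptors for modulatory transmitters fell more often than receptors for the fast transmitters by count, without a test of that difference. Of 34 receptors for amines, acetylcholine, adenosine, opioids and cannabinoids, 8 fell (23.5%, median -0.56). The alpha-1D adrenergic receptor Adra1d had 2.50, 2.79 and 2.79 RPKM in R6/2 and 11.5, 8.01 and 6.52 in wild type (a log2 fold change of -1.82, SE 0.20, adjusted p = 0.00147), and Adra1b had 1.71, 2.74 and 2.52 against 6.56, 5.08 and 4.82 (-1.37, SE 0.21, adjusted p = 0.00516). Hrh3, the histamine autoreceptor and heteroreceptor that limits transmitter release, had 8.32, 6.94 and 5.82 against 23.6, 15.5 and 25.0 RPKM (-1.73, SE 0.20, adjusted p = 0.00147). The serotonin receptor Htr1a had 1.47, 1.06 and 1.39 against 4.21, 3.12 and 4.95 RPKM (-1.78, SE 0.20, adjusted p = 0.00147). The groups of these 4 receptors did not overlap, and the calls were stable to leaving out a library.

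The adenosine receptor Adora1 had 26.5, 29.8 and 27.8 against 44.0, 42.7 and 44.1 RPKM (-0.77, SE 0.13, adjusted p = 0.00819) and was lost only without R6/2 replicate 3 (adjusted p = 0.0554). Oprd1, Chrm3 and Htr2a had log2 fold changes of -1.02, -1.01 and -1.22, and each was lost without R6/2 replicates 2 or 3 or wild-type replicates 1 or 2 (adjusted p = 0.0839, 0.0805, 0.101 and 0.0902 for Oprd1, 0.0638, 0.0832, 0.104 and 0.0964 for Chrm3, and 0.0840, 0.0940, 0.114 and 0.102 for Htr2a). The cannabinoid receptor Cnr1 had 24.3, 17.6 and 16.8 against 27.6, 23.2 and 23.5 RPKM and did not pass (-0.47, SE 0.17, adjusted p = 0.160), nor did the muscarinic receptor Chrm1 (-0.41, SE 0.15, adjusted p = 0.173). The number that fell was 13 without R6/2 replicate 1, 5 without R6/2 replicate 2, wild-type replicate 1 or wild-type replicate 2, and 4 without R6/2 replicate 3. Of 16 neuropeptide receptors, the cholecystokinin receptor Cckbr (-1.09, SE 0.21, adjusted p = 0.0152) and the orphan receptor Gpr83 (-1.40, SE 0.32, adjusted p = 0.0326) fell, and none was called without R6/2 replicates 2 or 3 or wild-type replicates 1 or 2 (Cckbr, adjusted p = 0.0503, 0.0590, 0.0659 and 0.0627; Gpr83, 0.101, 0.116, 0.152 and 0.0768), while 4 were without R6/2 replicate 1.

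Of 22 glutamate receptor genes tested, 2 fell, both stable to leaving out a library. Grm3, a metabotropic receptor of neurons and astrocytes, had 9.70, 10.9 and 11.6 against 21.1, 16.7 and 19.0 RPKM (-0.95, SE 0.14, adjusted p = 0.00441), and the NMDA receptor subunit Grin2c had 5.23, 5.84 and 5.37 against 9.56, 7.85 and 10.3 (-0.89, SE 0.15, adjusted p = 0.00654). The main AMPA subunit Gria2 had 131, 124 and 109.6 against 112, 113 and 106 RPKM (-0.01, SE 0.14, adjusted p = 0.981) and the obligatory NMDA subunit Grin1 108, 116 and 111 against 124, 89.1 and 84.5 (0.02, SE 0.15, adjusted p = 0.958), both with overlap. Of 17 GABA and glycine receptor genes, Gabrd fell, with 9.59, 10.7 and 7.27 RPKM in R6/2 and 28.7, 18.9 and 19.5 in wild type (-1.42, SE 0.20, adjusted p = 0.00351). Gabrd encodes the delta subunit of extrasynaptic receptors that give tonic inhibition, and its call was stable to leaving out a library. Without R6/2 replicate 1, 5 glutamate and 3 GABA or glycine receptor genes fell.

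Second messenger lists held small counts of falls, at 11.8% (cAMP and cGMP), 12.5% (RGS) and 8% (MAP kinase), against 3.64% of all genes. Of 34 cAMP and cGMP genes tested, 4 fell: Adcy1, the calmodulin-stimulated adenylyl cyclase (42.3, 42.0 and 44.9 against 77.2, 68.0 and 62.7 RPKM, -0.82, SE 0.13, adjusted p = 0.00562), Prkcb, a protein kinase C (96.0, 107 and 115 against 154, 189 and 168, -0.83, SE 0.15, adjusted p = 0.0110), Ppp1r1b and Ppp1r1a. Adcy1 and Prkcb were stable to leaving out a library. Rgs11, which shortens G protein signals, had 3.90, 5.03 and 3.44 against 14.1, 6.97 and 9.06 RPKM (-1.43, SE 0.24, adjusted p = 0.00768) and was stable as well, and of 16 RGS genes 2 fell, the other being Rgs4. Of 25 MAP kinase genes, Rasgrf2 and the phosphatase Dusp7 (-0.96, SE 0.18, adjusted p = 0.0131) fell, and neither was called without R6/2 replicate 2 or replicate 3 (adjusted p = 0.0609 and 0.0607 for Dusp7), nor Dusp7 without wild-type replicate 1 (0.0617). Without R6/2 replicate 1, 6 RGS genes and 5 MAP kinase genes fell, and without wild-type replicate 3, 5 MAP kinase genes did.

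In the presynaptic terminal, 7 of 30 vesicle and release genes fell (23.3%, median -0.32). Rph3a, rabphilin, which binds the vesicle protein Rab3, had 50.2, 64.6 and 62.4 RPKM in R6/2 and 125, 111 and 109 in wild type (a log2 fold change of -1.11, SE 0.14, adjusted p = 0.00224). Doc2a, a calcium sensor of spontaneous release, had 6.77, 4.80 and 5.46 against 16.4, 9.93 and 10.4 RPKM (-1.24, SE 0.21, adjusted p = 0.00769). Both were stable to leaving out a library. Vamp1, Cplx2, Rims3, Snap25 and Syt7 completed the 7 with log2 fold changes of -1.15, -0.90, -0.73, -0.69 and -0.54, and the number was 2 without R6/2 replicate 2, 3 without R6/2 replicate 3, wild-type replicate 1 or wild-type replicate 2, and 4 without R6/2 replicate 1 or wild-type replicate 3. Syp, the vesicle protein synaptophysin, had 459, 769 and 801 against 472, 539 and 508 RPKM (0.27, SE 0.20, adjusted p = 0.530), and Vamp2 338, 316 and 320.0 against 349, 318 and 310.0 (-0.14, SE 0.12, adjusted p = 0.611), so these abundant vesicle proteins did not pass.

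On the postsynaptic side, Homer1 and Dlgap3 were the 2 of 26 scaffold genes that fell. Dlgap3, which links PSD-95 to Shank proteins, had 39.6, 29.3 and 42.6 against 71.7, 57.1 and 66.1 RPKM and was stable to leaving out a library (-0.94, SE 0.16, adjusted p = 0.00819). Dlg4, PSD-95 itself, had 134, 182 and 197 against 202, 167 and 241 RPKM, with overlap (-0.39, SE 0.17, adjusted p = 0.258). Without R6/2 replicate 1, 5 scaffold genes fell. Of 17 genes of the extracellular matrix and perineuronal nets, 4 fell. Hapln1, which links hyaluronan to proteoglycans in the nets, had 2.07, 1.80 and 2.25 against 3.41, 4.43 and 3.94 RPKM (-1.09, SE 0.19, adjusted p = 0.00819). The collagens Col5a1 (0.889, 0.648 and 1.12 against 3.35, 2.36 and 2.98 RPKM, -1.86, SE 0.22, adjusted p = 0.00187) and Col19a1 (2.44, 1.85 and 2.06 against 3.97, 5.48 and 4.43, -1.28, SE 0.20, adjusted p = 0.00522) were, with Hapln1, stable to leaving out a library, while the proteoglycan Bcan (-0.61, SE 0.14, adjusted p = 0.0343) passed only when R6/2 replicate 1 was left out. Of 20 cytoskeletal genes none passed by edgeR, with 8 at an unadjusted p under 0.05, 1 lower and 2 higher by DESeq2 and 0 by limma. Gap43, of growing axons, had 184, 369 and 353 against 143, 165 and 171 RPKM (0.77, SE 0.23, adjusted p = 0.0936), and without R6/2 replicate 1, 2 cytoskeletal genes rose.

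Of 17 genes of the circadian clock and its outputs tested, 8 fell (47.1%, median -0.73). Dbp, an output factor, had 6.12, 4.33 and 2.61 RPKM in R6/2 and 13.9, 11.5 and 13.8 in wild type (a log2 fold change of -1.71, SE 0.26, adjusted p = 0.00522). Its relative Hlf had 18.3, 18.4 and 20.4 against 30.6, 38.7 and 30.02 RPKM (-0.95, SE 0.17, adjusted p = 0.00964). Nr1d1, the repressor REV-ERB alpha, had 17.7, 17.0 and 14.2 against 37.2, 25.9 and 29.0 RPKM (-1.05, SE 0.16, adjusted p = 0.00516), and Bhlhe40, a repressor that also responds to activity, 13.8, 13.8 and 16 against 34.4, 33.6 and 22.0 (-1.19, SE 0.19, adjusted p = 0.00585). All R6/2 values of these 4 genes were under the wild-type range, and the calls were stable to leaving out a library. Bhlhe41, Per3, Ciart and Npas2 also fell, and the number was 4 without R6/2 replicate 3, wild-type replicate 1 or wild-type replicate 2 and 5 without R6/2 replicate 2.

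The core clock activators did not pass. Arntl had 9.47, 9.98 and 10.1 against 10.2, 8.37 and 8.26 RPKM (-0.01, SE 0.15, adjusted p = 0.986), Clock 14.3, 11.6 and 11.6 against 10.5, 11.6 and 9.70 (0.09, SE 0.16, adjusted p = 0.830), and the repressor Per2 8.06, 5.81 and 5.89 against 7.57, 6.70 and 5.18 (-0.12, SE 0.19, adjusted p = 0.808). Per1 had 8.34, 5.14 and 5.20 against 12.1, 8.13 and 9.45 RPKM, with a slight overlap (-0.80, SE 0.21, adjusted p = 0.0609). The labels do not give the hour at which tissue was taken, and any difference in hour between the groups was not tested.

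Genes named for muscle were read as well. Of 8 contractile genes tested (8 others of the list were below the minimum level), 4 fell, with a median of -0.89. Myh7, under 0.5 RPKM in every R6/2 library, was tested only because of its wild-type values. The counts and the median of this list lean towards falls for this reason, by an amount that was not tested. Tnnc1, troponin C, had 1.27, 3.41 and 2.48 RPKM in R6/2 and 13.7, 20.1 and 13.5 in wild type (a log2 fold change of -2.89, SE 0.35, adjusted p = 0.00224), and Myl4, a myosin light chain, had 2.82, 7.24 and 7.10 against 20.03, 31.4 and 16.7 (-2.18, SE 0.36, adjusted p = 0.00719). Both were stable to leaving out a library. Myh7, a myosin heavy chain, had 0.302, 0.155 and 0.412 against 1.73, 0.532 and 2.08 RPKM (-2.47, SE 0.47, adjusted p = 0.0137) and was lost without wild-type replicate 1 (adjusted p = 0.0704). Tnnt1 (-1.53, SE 0.37, adjusted p = 0.0435), also listed as a thalamic marker, passed only when R6/2 replicate 2 was left out, and the count of 4 was 2 without wild-type replicate 1. Actn2 had 7.21, 6.31 and 5.26 against 6.12, 4.31 and 7.92 RPKM and did not pass (-0.11, SE 0.21, adjusted p = 0.848).

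Interferon response genes were the main group that rose. Of 25 tested, 10 rose (40.0%, against 0.671% of all genes), and 24 of the 25 had a fold change above 0, with a median of 0.99. Another 7 of the list were below the minimum level. That level was a mean of 0.5 RPKM over all 6 libraries. Usp18 and Irf7, under 0.5 RPKM in every wild-type library, were therefore tested only because of their R6/2 values. The counts and the median of this list lean towards rises for this reason, by an amount that was not tested. Oasl2, an oligoadenylate synthetase-like sensor, had 3.28, 2.20 and 3.92 RPKM in R6/2 and 0.613, 0.456 and 0.479 in wild type (a log2 fold change of 2.46, SE 0.27, adjusted p = 0.00138). Ifit1, which binds foreign RNA caps, had 2.98, 2.82 and 3.29 against 1.05, 0.746 and 0.545 RPKM (1.82, SE 0.26, adjusted p = 0.00385), and Ifit3 3.87, 6.28 and 6.12 against 1.597, 1.53 and 1.23 (1.76, SE 0.24, adjusted p = 0.00351). Every R6/2 library exceeded every wild-type library for each of these genes, with a wide gap between the groups. Usp18, which removes the ubiquitin-like protein ISG15, had 2.71, 1.37 and 2.53 against 0.255, 0.0807 and 0.288 RPKM (3.24, SE 0.46, adjusted p = 0.00404). Irf7, the factor that amplifies type I interferon, had 2.23, 1.71 and 2.62 against 0.469, 0.371 and 0.141 RPKM (2.57, SE 0.41, adjusted p = 0.00588). The RNA sensor RIG-I, Ddx58, had 1.95, 1.87 and 2.11 against 0.793, 0.433 and 0.816 RPKM (1.41, SE 0.24, adjusted p = 0.00810). These 6 genes were stable to leaving out a library.

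The other 4 included Ifi44, Ifi27 and Gbp3. Ifi44 (2.74, SE 0.51, adjusted p = 0.0125) was lost without wild-type replicate 2 (0.0609). Over the list, 7 rose without R6/2 replicate 3 or wild-type replicate 1 and 12 without R6/2 replicate 1. Stat2, a signal transducer of the interferon receptors, had 5.76, 6.64 and 6.56 against 5.53, 5.81 and 6.21 RPKM (-0.04, SE 0.15, adjusted p = 0.932) and Ifit2 2.86, 2.35 and 3.27 against 2.10, 3.29 and 1.90 (0.06, SE 0.25, adjusted p = 0.935), both with overlap and neither past the threshold. Bst2, tetherin, had 4.28, 4.28 and 7.39 against 2.59, 0.852 and 1.66 RPKM without overlap and did not pass (1.49, SE 0.39, adjusted p = 0.0575). The Ifit and Gbp genes have close paralogs, and reads shared between copies were counted in a way not given in the sources used here.

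Other genes were named outside the list. Ifi27l2a, of the largest rises, passed (2.78, SE 0.50, adjusted p = 0.0106) except without wild-type replicate 1 (adjusted p = 0.0629). Trim25, a ligase that activates RIG-I, and Parp12, an ADP-ribosyltransferase, were chosen after their values were seen. Trim25 had 2.01, 1.98 and 1.70 against 0.815, 0.565 and 0.728 RPKM and was stable to leaving out a library (1.30, SE 0.20, adjusted p = 0.00522), and Parp12 (1.02, SE 0.18, adjusted p = 0.0107) was lost without wild-type replicate 1 (0.0557). Among 7 MHC class I genes, H2-K1 rose, with 8.00, 12.0 and 9.61 against 4.81, 3.71 and 5.50 RPKM (0.94, SE 0.20, adjusted p = 0.0256), a call lost without R6/2 replicates 2 or 3 or wild-type replicates 1 or 2 (adjusted p = 0.118, 0.0772, 0.103 and 0.0968). B2m, the shared light chain, had 57.6, 79.7 and 50.1 against 45.3, 37.4 and 62.02 RPKM, with overlap (0.24, SE 0.21, adjusted p = 0.621). Class I genes are similar enough that reads may be split between them.

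Promoters of 7 of the 10 interferon genes that rose had an entry in the same RefSeq table. The interferon-stimulated response element, GAAA and GAAA with 2 bases of any kind between them, on either strand, lay in the 250 bases before a start of 3 of the 7, Ifit1, Ifit3 and Gbp3, and in 3.46% of all genes with a window. Over all 21 tested interferon genes with a window, 7 held it, so it was not limited to those past the threshold. The windows of Ifit1 and Ifit3 are shown because their calls were stable and each holds the element 2 times, on the strand opposite to the gene, as TTTCACTTTC and TTTCAGTTTC. In Ifit1 these lie 104 to 95 and 85 to 76 bases before the start, and in Ifit3 156 to 147 and 122 to 113 bases before it. Capitals mark the matches.
Ifit1, chr19:34640639-34640888, plus strand: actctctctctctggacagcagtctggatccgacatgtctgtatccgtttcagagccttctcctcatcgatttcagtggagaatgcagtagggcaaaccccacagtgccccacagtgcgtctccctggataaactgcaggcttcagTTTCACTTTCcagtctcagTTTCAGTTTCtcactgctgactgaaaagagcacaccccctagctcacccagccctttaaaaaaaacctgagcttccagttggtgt
Ifit3, chr19:34583279-34583528, plus strand: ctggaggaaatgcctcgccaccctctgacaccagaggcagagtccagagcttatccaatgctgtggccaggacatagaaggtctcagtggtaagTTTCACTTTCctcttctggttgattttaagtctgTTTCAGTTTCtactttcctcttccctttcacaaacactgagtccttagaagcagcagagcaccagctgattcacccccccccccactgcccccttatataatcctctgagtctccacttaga

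Markers of microglia, the immune cells of the brain, were read beside these genes. None of 17 microglia markers passed by edgeR (2 at an unadjusted p under 0.05, 1 lower by DESeq2, 0 by limma), with a median of -0.01, and their summed RPKM was 166, 208 and 229 in R6/2 and 177, 152 and 209.8 in wild type. Cx3cr1, the fractalkine receptor, had 8.25, 13.9 and 13.3 against 9.0, 11.9 and 12.7 RPKM (-0.07, SE 0.22, adjusted p = 0.908). Ctss, a lysosomal protease, had 31.1, 40.1 and 46.1 against 25.1, 22.8 and 28.5 RPKM, without overlap (0.47, SE 0.17, adjusted p = 0.166), and without R6/2 replicate 1 it was the 1 marker that rose (adjusted p = 0.0473). None of 6 complement genes tested passed (0 at an unadjusted p under 0.05, 0 by DESeq2 and limma). C1qa had 12.2, 16.7 and 17.5 against 19.5, 14.2 and 21.7 RPKM (-0.39, SE 0.19, adjusted p = 0.317).

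Of 14 astrocyte genes tested, 5 fell (35.7%, median -0.72), and their summed RPKM was 767, 1161 and 1073 in R6/2 and 1318, 1384 and 1882 in wild type, without overlap. By limma none of the 14 was called, with scaling to the authors' library total 2 fell, and by DESeq2 9 did. Slc1a2, the main glutamate transporter of the brain, had 101, 156 and 153 against 176, 229 and 259.6 RPKM (-0.86, SE 0.20, adjusted p = 0.0382). Glul, which turns glutamate into glutamine, had 180.0, 332 and 288 against 405, 477 and 547 RPKM (-0.99, SE 0.21, adjusted p = 0.0252). Fgfr3, a growth factor receptor, had 14.7, 12.7 and 15.5 against 23.6, 19.4 and 30.5 RPKM (-0.92, SE 0.17, adjusted p = 0.0125) and was lost without R6/2 replicate 2 alone (adjusted p = 0.0616). Aldoc and Ndrg2 had log2 fold changes of -0.92 and -1.07. None of the 5 was stable to leaving out each library: the count was 1 without wild-type replicate 3, 2 without R6/2 replicates 2 or 3 or wild-type replicate 2, and 4 without wild-type replicate 1, and it stayed at 5 without R6/2 replicate 1.

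Vim, vimentin, an intermediate filament that rises in reactive astrocytes, had 9.15, 14.2 and 9.79 RPKM in R6/2 and 5.57, 4.10 and 4.87 in wild type (1.05, SE 0.20, adjusted p = 0.0137). It was the only one of 10 reactive astrocyte genes tested that rose, and the call was lost without R6/2 replicate 2 (adjusted p = 0.0633), wild-type replicate 1 (0.0511) or wild-type replicate 2 (0.0631). Gfap, the usual marker of that state, had 14.2, 27.0 and 27.3 against 29.6, 16.8 and 30.6 RPKM, with overlap (-0.31, SE 0.26, adjusted p = 0.592), and Serpina3n, an inhibitor of proteases, 8.34, 6.93 and 6.83 against 3.10, 2.07 and 4.89 without overlap (1.01, SE 0.26, adjusted p = 0.0535). Vimentin is also made in meninges and vessels, and R6/2 replicate 2 had both the highest Vim and the highest meningeal sum; their relation was not tested.

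Of 18 oligodendrocyte genes tested, 3 fell, Tspan2, Cldn11 and Ugt8a, with log2 fold changes of -0.81, -0.82 and -0.64. Cldn11, a tight junction protein of myelin, had 21.2, 22.2 and 23.4 against 45.8, 29.4 and 33.1 RPKM (adjusted p = 0.0143), and none of the 3 was called without R6/2 replicate 2 (adjusted p = 0.0731, 0.0594 and 0.175) or wild-type replicate 1 (0.0514, 0.0597 and 0.108). No marker of oligodendrocyte precursors (9 tested, 4 at an unadjusted p under 0.05, 1 higher by DESeq2, 0 by limma), of endothelium and pericytes (17 tested, 0 at an unadjusted p under 0.05 and 0 by either tool, 1 lower without R6/2 replicate 1) or of meninges and fibroblasts (12 tested, 2 at an unadjusted p under 0.05, 0 by either tool) passed by edgeR.

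**Figure D3:**
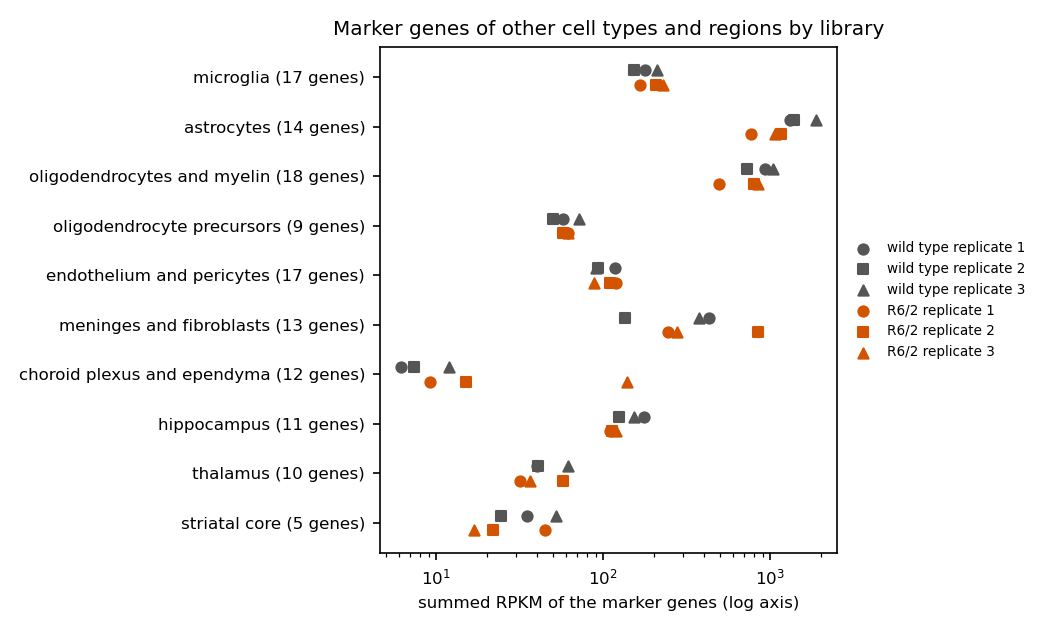
Summed RPKM of marker genes (horizontal log axis) of other cell types and regions, with a symbol for each of the 6 libraries, R6/2 in orange and wild type in grey. Astrocyte sums are lower in all 3 R6/2 libraries, and single libraries stand out for the meninges, the choroid plexus and the striatal genes.

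Pax2, a developmental factor of midbrain, hindbrain and inner ear, held 34, 103 and 69 counts in the R6/2 libraries and 0 in the wild-type libraries, at least 42.4-fold higher against a floor of 3 counts over the wild-type group (adjusted p = 0.00522). With 0 wild-type counts, it reached the minimum level only through its R6/2 values. Only 5 of 32 homeobox and developmental genes reached the minimum level, so this is not a statement about the family. Onecut2, the other of the 5 that rose, had 2.47, 1.23 and 1.63 against 0.402, 0.523 and 0.730 RPKM (1.55, SE 0.29, adjusted p = 0.0121) and was lost without wild-type replicates 1 or 2 (adjusted p = 0.0636 and 0.0631). Pax6 had 3.85, 6.85 and 5.06 against 3.03, 2.98 and 3.75 RPKM and did not pass (0.54, SE 0.23, adjusted p = 0.237).

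Polr2a, the largest subunit of RNA polymerase II, had 23.5, 21.3 and 18.2 RPKM in R6/2 and 10.6, 9.19 and 8.52 in wild type (a log2 fold change of 1.01, SE 0.16, adjusted p = 0.00522). Nfya, a subunit of the CCAAT-binding factor NF-Y, had 10.4, 12.4 and 9.71 against 5.56, 4.06 and 3.88 RPKM (1.13, SE 0.17, adjusted p = 0.00522), and Atad2b, a bromodomain ATPase, 8.75, 7.19 and 6.82 against 2.73, 2.54 and 2.57 (1.40, SE 0.16, adjusted p = 0.00147). The R6/2 values of the 3 genes were all well above the wild-type values, and the calls were stable to leaving out a library. These genes were picked out after their values were seen.

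The 15 largest rises by rule (called, no overlap of RPKM, at least 1 RPKM in the higher group) were led by Gm12695 and Pax2 and held 6 genes of the interferon list, namely Usp18, Ifi44, Irf7, Oasl2, Ifit1 and Ifit3. The others were Ttr, Ifi27l2a, Nnmt, Rgs13, Cnmd, Tal1 and Col5a3. Of the 15, at least Gm12695, Pax2, Usp18, Irf7, Nnmt and Cnmd were under 0.5 RPKM in every wild-type library. These genes were therefore tested only because of their R6/2 values. Nnmt, which methylates nicotinamide, had 0.875, 1.05 and 1.42 against 0.115, 0.0656 and 0.156 RPKM (3.14, SE 0.53, adjusted p = 0.00810) and was lost without wild-type replicate 1 (adjusted p = 0.0534). Rgs13, a G protein regulator, Tal1, a helix-loop-helix factor, and the collagen Col5a3 had log2 fold changes of 2.72, 1.83 and 1.66. Rgs13 was lost without wild-type replicate 1 (adjusted p = 0.0893), Tal1 without R6/2 replicate 3 or any wild-type library (0.0580, 0.0647, 0.0706 and 0.0509) and Col5a3 without R6/2 replicates 2 or 3 or wild-type replicates 1 or 2 (0.0529, 0.0569, 0.0659 and 0.0651). Cnmd, chondromodulin, had 1.05, 1.93 and 1.245 against 0.296, 0.187 and 0.223 RPKM and was stable to leaving out a library (2.42, SE 0.42, adjusted p = 0.00875). Ttr, transthyretin of the choroid plexus, had 4.29, 7.42 and 131 RPKM in R6/2 and 0.880, 2.17 and 2.70 in wild type (4.48, SE 1.13, adjusted p = 0.0483), and a single library, R6/2 replicate 3, held nearly all of it. Without that library the adjusted p was 0.137, and without wild-type replicates 1, 2 or 3 it was 0.195, 0.171 and 0.114. The summed RPKM of the 11 other choroid and ependymal markers was 4.92, 7.71 and 7.71 in R6/2 and 5.24, 5.18 and 9.18 in wild type, and the choroid genes Folr1 (0, 0.0213 and 0.0668 and 0.0376, 0.0268 and 0.0510) and Kl (0.166, 0.234 and 0.103 and 0.130, 0.0675 and 0.246) were near 0. The part of choroid plexus tissue in the Ttr result was not tested.

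The 15 largest falls by the same rule were Sytl1, C1ql2, Krt80, Alox12b, Rspo1, Rnf39, Jsrp1, Ier5l, Adam33, 1700001O22Rik, Ntn5, Tnnc1, Catsperz, Plk5 and Fst, and 14 of them were stable to leaving out a library. Sytl1, a Rab27-binding protein of vesicle transport, had 0.0116, 0.121 and 0 RPKM in R6/2 and 1.31, 1.28 and 1.03 in wild type (a log2 fold change of -4.60, SE 0.70, adjusted p = 0.00522). Alox12b, a lipoxygenase best known from skin, had 0.205, 0.129 and 0.153 against 1.80, 1.46 and 1.42 RPKM (-3.41, SE 0.35, adjusted p = 0.00138). Ier5l, related to the early gene Ier5, had 1.15, 0.424 and 0.181 against 6.97, 3.50 and 4.83 RPKM (-3.21, SE 0.51, adjusted p = 0.00576). Jsrp1, a protein of the junctional sarcoplasmic reticulum of muscle, had 0.404, 0.367 and 0.128 against 2.55, 2.78 and 2.99 RPKM (-3.30, SE 0.41, adjusted p = 0.00224). Plk5, a brain kinase-like protein of the polo family, had 1.24, 0.706 and 0.398 against 7.32, 3.07 and 3.93 RPKM (-2.72, SE 0.41, adjusted p = 0.00522), and Fst, follistatin, which binds activin, 0.235, 0.225 and 0.174 against 0.881, 1.90 and 0.721 (-2.61, SE 0.46, adjusted p = 0.00931). Absence of overlap between the groups was part of the rule that chose them. At least Sytl1, C1ql2, Alox12b, Rspo1, Jsrp1 and Fst were under 0.5 RPKM in every R6/2 library. These genes were tested only because of their wild-type values.

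C1ql2, a synaptic organizer of hippocampal mossy fibres, was the exception in stability, with 0.292, 0.0727 and 0.358 against 1.33, 0.417 and 7.70 RPKM (-3.89, SE 0.92, adjusted p = 0.0365). Wild-type replicate 3 was far above the other 2, and the adjusted p without it was 0.144. The call was lost as well without R6/2 replicate 2 (0.0914), R6/2 replicate 3 (0.0799) or wild-type replicate 1 (0.0659). The dentate gyrus gene Prox1 had 1.56, 1.94 and 1.80 against 1.85, 1.40 and 4.44 RPKM and the hippocampal gene Fibcd1 1.18, 1.12 and 1.26 against 1.62, 1.39 and 6.71, highest in the same library. C1ql2 was the only one of 9 hippocampal genes tested that fell, against 4 without R6/2 replicate 1 and 2 when wild-type replicate 2 was left out. Over 11 hippocampal markers the sum was 109.5, 113 and 119.8 RPKM in R6/2 and 175, 125 and 153 in wild type, without overlap, and the part of hippocampal tissue in these values was not tested.

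Chromatin genes were read because the series is titled for histone H3 lysine 4 methylation. None of 13 subunits of H3K4 methyltransferase complexes passed by edgeR (1 at an unadjusted p under 0.05, 0 by DESeq2 and limma), with a median of 0.10. Kmt2a, a methyltransferase, had 14.8, 12.0 and 10.7 against 13.6, 11.2 and 10.6 RPKM (-0.05, SE 0.16, adjusted p = 0.906). None of 6 H3K4 demethylases passed (1 at an unadjusted p under 0.05, 0 by DESeq2 and limma), with a median of 0.21. Kdm5c had 14.7, 15.9 and 15.0 against 12.1, 10.0 and 8.71 RPKM (0.43, SE 0.15, adjusted p = 0.150) and Kdm5b 15.8, 13.9 and 13.2 against 11.1, 9.71 and 10.8 (0.30, SE 0.14, adjusted p = 0.302). For both demethylases every R6/2 value was above the wild-type range, as for 20.2% of all genes on this scale. Each fitted difference exceeded its error, but neither passed after adjustment over all genes. All 6 demethylases had a fold change above 0, while the median log2 fold change over all genes was 0.01. For 5 of the 6 every R6/2 RPKM value exceeded the wild-type range, on a scale that shifts the all-gene median to 0.14. A rise of the list as a whole was not tested.

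None of 19 histone deacetylases and acetyltransferases passed by edgeR (4 at an unadjusted p under 0.05, 0 by DESeq2 and limma), and none of 11 genes of the REST repression system (0 at an unadjusted p under 0.05, 0 by DESeq2 and limma). The 17 core histone genes tested gave 0 calls by edgeR (2 at an unadjusted p under 0.05, 1 lower by DESeq2, 0 by limma), and their poly(A)-selected RNA is only part of histone RNA. Hdac5 had 35.2, 37.5 and 48.7 against 45.1, 32.0 and 44.7 RPKM (-0.15, SE 0.17, adjusted p = 0.699).

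Protein quality control and energy genes gave 0 or 1 call per list, where 0.671% of all genes were higher and 3.64% lower. Such counts in lists of this size are near those shares and are not read as results about the pathways. Of 26 heat shock genes none passed by edgeR (1 at an unadjusted p under 0.05, 0 by DESeq2 and limma), of 28 proteasome genes none (4 at an unadjusted p under 0.05, 0 by DESeq2 and limma; median 0.23, 24 above 0), of 19 autophagy and lysosome genes none (1 at an unadjusted p under 0.05, 0 by DESeq2 and limma) and of 29 oxidative phosphorylation genes none (0 at an unadjusted p under 0.05, 0 by DESeq2 and limma). Hsp90ab1, an abundant chaperone, had 551, 1088 and 927 against 513, 552 and 645 RPKM (0.43, SE 0.21, adjusted p = 0.325), with overlap because R6/2 replicate 1 lay among the wild-type values. Cox4i1, a respiratory chain subunit, had 402, 726 and 634 against 497, 365 and 512 RPKM (0.21, SE 0.20, adjusted p = 0.644). Without R6/2 replicate 1, 2 heat shock genes and 1 autophagy gene rose, and without R6/2 replicate 2, 1 heat shock gene fell. None of 22 ribosomal protein genes passed by edgeR (1 at an unadjusted p under 0.05, 0 by DESeq2 and limma), and of 21 glycolysis genes Aldoc alone fell. Of 18 genes of the unfolded protein response, the sensor Atf6 fell (8.93, 9.65 and 8.35 against 13.4, 14.4 and 11.9 RPKM, -0.70, SE 0.15, adjusted p = 0.0253), a call lost without R6/2 replicates 2 or 3 or wild-type replicates 1 or 2 (adjusted p = 0.0733, 0.125, 0.0710 and 0.0829).

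Of 22 cholesterol genes 2 fell, among them the synthesis enzyme Cyp51 (8.49, 7.99 and 8.56 against 12.3, 13.8 and 12.6 RPKM, -0.78, SE 0.15, adjusted p = 0.0143), and none of the 22 did without R6/2 replicate 2, R6/2 replicate 3 or wild-type replicate 2 (adjusted p for Cyp51 = 0.0747, 0.0677 and 0.0522). The metallothioneins Mt1 and Mt2, metal-binding proteins mostly of astrocytes, and the peroxiredoxin Prdx6 were the 3 of 22 antioxidant genes that fell (log2 fold changes -1.08, -0.88 and -0.55), and none of the 3 was called without R6/2 replicates 2 or 3 or wild-type replicates 1 or 3. The cell cycle inhibitor Cdkn1a had 5.70, 3.23 and 2.53 against 10.9, 8.44 and 6.49 RPKM (-1.30, SE 0.29, adjusted p = 0.0310) and, with Btg2, was 1 of 2 genes that fell among 19 of the p53 response, both lost without R6/2 replicates 2 or 3 or wild-type replicate 1 (adjusted p = 0.0996, 0.100 and 0.141 for Cdkn1a), and Cdkn1a also without wild-type replicate 2 (0.110).

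Signals and adhesion proteins of development closed the lists. Of 31 Wnt, TGF-beta and retinoid genes 4 fell: Fst, described above, the BMP antagonist Nog, the helix-loop-helix inhibitor Id2 and Wnt9a, with log2 fold changes of -1.05, -0.65 and -0.96 for the last 3. Fst alone was stable to leaving out a library, and the count was 1 without R6/2 replicate 3 or wild-type replicates 1 or 2 and 2 without R6/2 replicate 2. Of 37 guidance and adhesion genes, Cntn6, a contactin of neuronal surfaces, rose (10.1, 6.53 and 6.82 against 3.50, 2.96 and 2.10 RPKM, 1.31, SE 0.24, adjusted p = 0.0112) and Sema4a, a semaphorin, fell (7.46, 5.82 and 6.39 against 17.5, 12.2 and 10.5, -1.17, SE 0.20, adjusted p = 0.00768), both stable to leaving out a library. Without R6/2 replicate 1, 4 of the 37 fell. Pcdh17 rose by 0.54 on the log2 scale, and was called in none of the fits that left out a library.

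**Figure D4:**
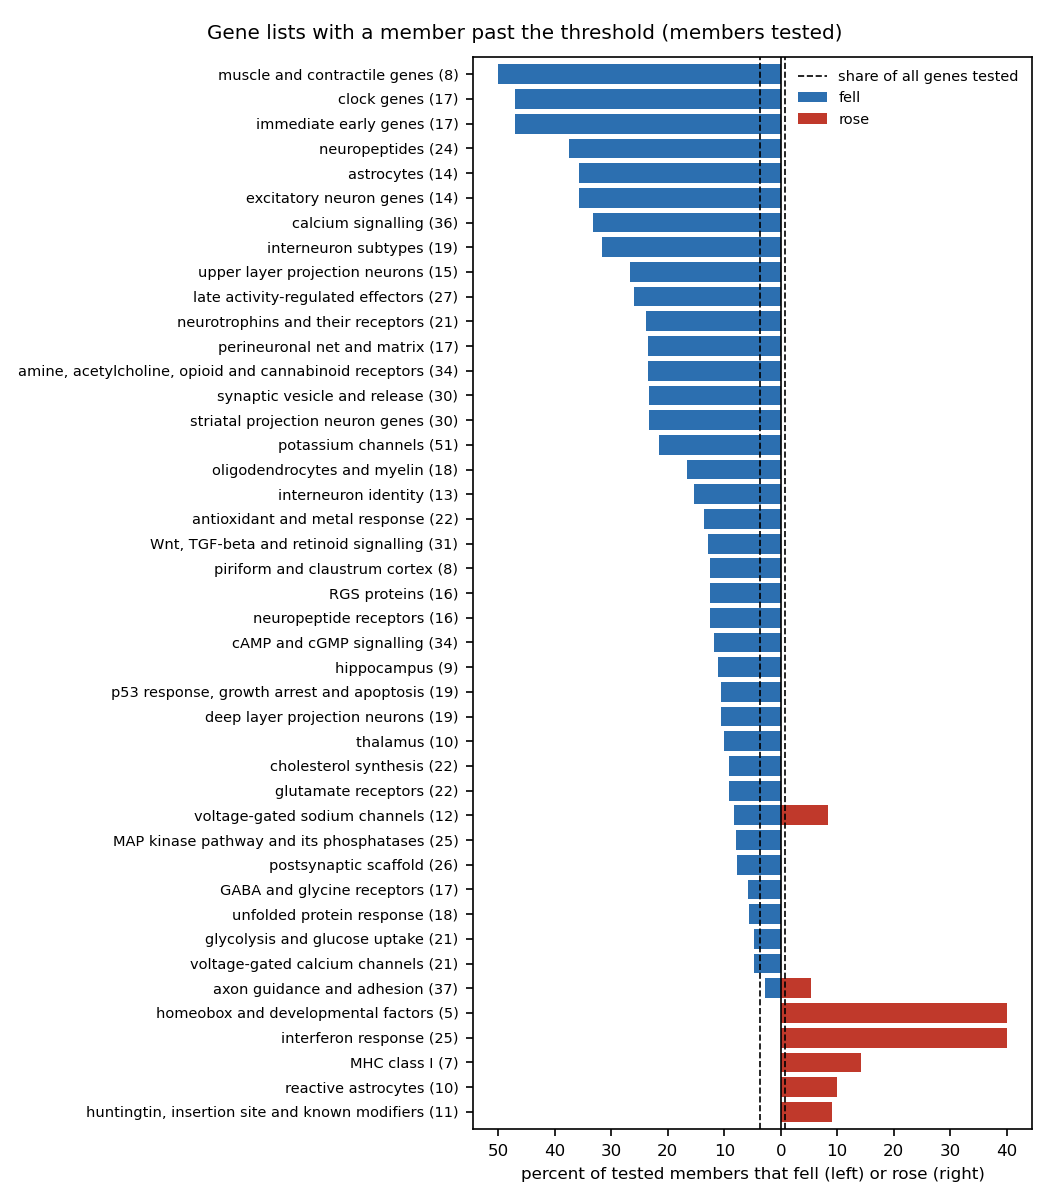
Percent of the tested members of each gene list that fell (blue, left) or rose (red, right) in R6/2 cortex at 12 weeks, for lists with at least 5 members tested and a call, with the number tested in brackets. Dashed lines give the share of all genes tested, 3.64% lower and 0.671% higher.

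The younger cortex was compared gene by gene. In cortex at 8 weeks no gene of the 11772 passed by edgeR on its own 6 libraries. At an unadjusted p under 0.05 there were 2961 genes (25.2%) at 8 weeks, more than the 2058 (17.5%) at 12 weeks. The lack of calls at 8 weeks is not read here as a lack of differences at that age, and what lies behind these counts was not tested. For the 429 genes that fell at 12 weeks the median log2 fold change at 8 weeks was -0.35, and 304 of them (70.9%) were below 0, against 48.0% of all genes. For the 79 that rose the median was 0.53, and 65 (82.3%) were above 0, against 51.9% of all genes. The 2 ages share no library. Over all genes, Spearman's rho between the 2 sets of fold changes was 0.208, a description across genes that are not independent.

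The medians of the lists at 8 weeks are set beside those at 12 weeks, with no test of the difference. Immediate early genes had a median of -0.29 at 8 weeks and -0.97 at 12 weeks, clock genes -0.20 and -0.73, and interferon genes 0.73 and 0.99. Late activity effectors had -0.69 and -0.67, and interneuron subtype genes -1.22 and -0.66. Arc had 39.8 ± 13.9 RPKM in R6/2 at 8 weeks (mean ± SD, n = 3) against 62.1 ± 71.8 in wild type, and Egr2 had 0.631 ± 0.368 against 4.25 ± 3.63. Sst had a log2 fold change of -0.01 (SE 0.45) at 8 weeks, while Vip had -1.38 (SE 0.30).

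The change with age was tested as an interaction of age and genotype over the 12 cortex libraries. No gene passed by edgeR (2101 of 11742 at an unadjusted p under 0.05), none by limma, while DESeq2 gave 39 genes with a more positive and 88 with a more negative R6/2 difference at 12 than at 8 weeks. The genes with the smallest p for a lower R6/2 value at 12 than at 8 weeks were Rgl2, Tnfrsf25, Ldhd, H2aj and Dok3. Tnfrsf25, a receptor of the tumour necrosis factor family, had 0.619 ± 0.226 RPKM in R6/2 against 3.40 ± 0.153 in wild type at 12 weeks, and 0.656 ± 0.323 against 0.307 ± 0.0560 at 8 weeks (interaction -3.51, SE 0.64, adjusted p = 0.176). The wild-type means differed between the ages more than the R6/2 means, and wild type was not tested between the ages. In the other direction the smallest p went to A730069N07Rik, Ate1, Fstl5, Cyp26b1 and Nid1, with interactions from 1.59 to 2.91 and adjusted p from 0.176 to 0.223.

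**Figure D5:**
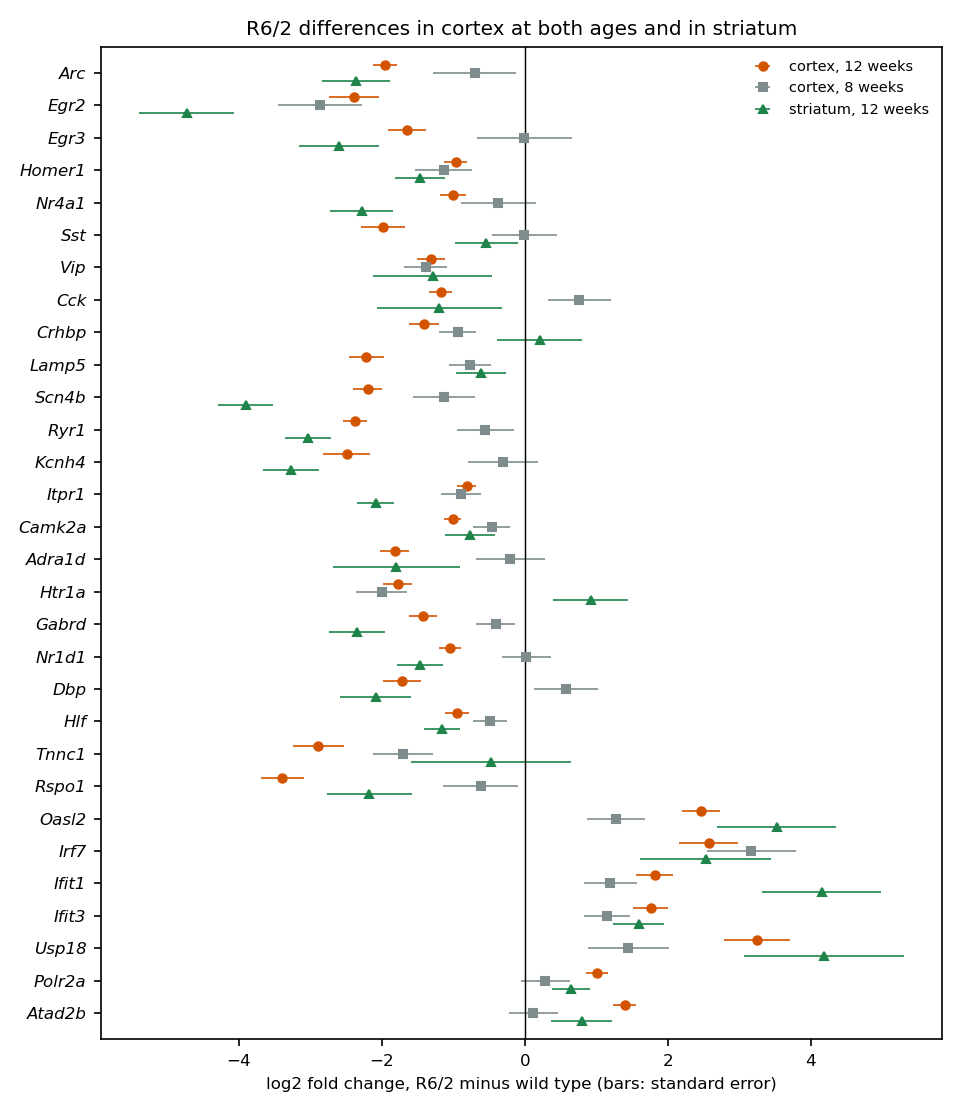
Log2 fold change of R6/2 against wild type (horizontal axis, bars for the standard error) of 30 genes in cortex at 12 weeks (circles), cortex at 8 weeks (squares) and striatum at 12 weeks (triangles). Oasl2, Irf7, Ifit1, Ifit3, Usp18, Polr2a and Atad2b lie right of 0 in all 3 groups, and Arc, Egr2, Homer1, Scn4b, Ryr1 and Kcnh4 lie left of 0 in all 3.

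The striatum of the same age was read on the same 11772 genes, where 70 were higher (0.595%) and 215 lower (1.83%). For the 429 genes that fell in cortex the median log2 fold change in striatum was -0.78, and 352 (82.1%) were below 0, against 49.3% of all genes. For the 79 that rose the median was 0.89, and 72 (91.1%) were above 0, against 50.7% of all genes. In striatum 73 of the 429 fell and 9 of the 79 rose by the test there, which is 17.0% and 11.4% of the cortex lists and 34.0% of the 215 and 12.9% of the 70 of the striatal lists. The 2 tissues share no library, although the labels do not say whether they share mice.

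Only a few genes differed between the tissues by the test of the difference itself. Over the 12 libraries at 12 weeks, the R6/2 difference was more positive in cortex for 10 genes and more negative for 23 of 11768 (0.085% and 0.195%, with 1162 genes or 9.87% at an unadjusted p under 0.05). DESeq2 gave 75 and 110, limma 0 and 1, and leaving out a cortex library left 0 to 3 and 1 to 2. Tafa1, a secreted protein of neurons, had the smallest p, with 3.53 ± 1.31 RPKM in R6/2 against 9.68 ± 1.70 in wild-type cortex and 4.12 ± 0.392 against 0.417 ± 0.212 in striatum (difference -4.80, SE 0.47, adjusted p = 0.000588). It was lower in R6/2 cortex and higher in R6/2 striatum, and the 2 R6/2 tissues ended near the same level. Grik1, a kainate receptor, Gng4, a G protein subunit, Rasgrf2 and Tmem200a followed, with differences of -3.40, -1.83, -2.47 and -2.98.

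Among these, Gng4 had higher R6/2 means in both tissues, with 30.1 ± 4.52 against 16.8 ± 2.84 RPKM in cortex and 30.6 ± 5.89 against 4.77 ± 0.934 in striatum. In the other direction stood Adcy5, the adenylyl cyclase of striatal neurons, Strn, Chrm4, Tbc1d16 and Tbc1d8. Adcy5 had 28.2 ± 5.11 RPKM in R6/2 and 26.2 ± 5.49 in wild-type cortex, and 34.7 ± 12.9 against 170.0 ± 41.5 in striatum (difference 2.40, SE 0.34, adjusted p = 0.0226). The cortical level of Adcy5 did not differ beyond its spread (log2 fold change -0.02, adjusted p = 0.970).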

How the data were processed

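Poly(A)-selected, strand-specific paired-end RNA libraries were sequenced on Illumina instruments, per the labels' protocols. The authors deposited whole-number read counts, gene lengths and RPKM per library, and an RPKM table for cortex at 12 weeks that was used for the minimum level. Bowtie, DESeq and mm9 are named in the submitters' processing notes, without roles. Counting used a program and strand setting not given in the sources used here, so reads of antisense or overlapping genes may be misassigned. Lengths in R6/2 replicate 2 were 4 to 760 bases shorter, which changes its RPKM and not the counts. The labels number each library and do not say that each is a separate mouse, so p-values reflect variation among libraries, some of which could be technical; no replicate pair agreed within counting noise. Counts in genes, 17015220 to 47684796 a library, set the precision, and were 47.2 to 52.6% of the library total that the deposited RPKM imply.

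Counts were tested with edgeR 4.0.16 (TMM, quasi-likelihood, two-sided, Benjamini-Hochberg over all genes tested, threshold 0.05) in R 4.3.3, after a check on simulated data. DESeq2 1.42.0, limma 3.58.1 on log2(RPKM + 0.5), other scalings and filters, removal of GC and length trends and leaving out each library were alternatives. Standard errors are on the log2 scale and SDs over 3 libraries. Symbols and promoters came from RefSeq (18594 of 18669 gene IDs matched). The 61 gene lists (1290 of 1328 entries matched, the rest not analysed here) and the members of the comparison were chosen with earlier results of these data known. Named were the 15 largest rises and falls, of each list up to 5 genes past the threshold and 3 that did not pass, the insertion gene, Htt and Bdnf, and the 5 smallest p in each direction of the interactions. Some genes that this rule names are not reported here.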

Additional observations from a re-analysis of the deposited data

Results flagged for a closer look

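For 5 genes of the lists that passed in cortex at 12 weeks, the R6/2 difference itself differed between cortex and striatum of that age (edgeR interaction over 12 libraries, adjusted p under 0.05). All values are log2 fold changes of R6/2 against wild type, and the stated difference is cortex minus striatum. The potassium channel genes Kcnab3 and Kcnj16 had -1.23 and -1.05 in cortex and 0.74 and 1.83 in striatum, differences of -1.98 (SE 0.38, adjusted p = 0.0459) and -2.88 (SE 0.52, adjusted p = 0.0377). Rasgrf2 had -0.86 in cortex and 1.59 in striatum, a difference of -2.47 (SE 0.40, adjusted p = 0.0297). Onecut2 had 1.55 and -0.99, a difference of 2.54 (SE 0.46, adjusted p = 0.0377). Arpp21, a calmodulin-regulating phosphoprotein, had -0.58 and -2.28, a difference of 1.68 (SE 0.33, adjusted p = 0.0498). With a cortex library left out, at most 3 genes with a more positive and 2 with a more negative difference passed over the whole table in any of these fits.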

How the results depend on the processing

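The counts of 79 higher and 429 lower genes stayed within 1.5 times under scaling by relative log expression, a minimum of 1 RPKM and no minimum. DESeq2 gave 202 higher and 751 lower genes, removal of GC and length trends gave 153 higher, limma gave 163 lower, scaling to the authors' library total gave 227 lower, and a fit over all 12 cortex libraries gave 14 higher and 71 lower. Leaving out a library gave 24 to 172 higher and 183 to 553 lower genes. Of the 508 calls, 505 were kept by DESeq2, 223 by limma, 305 with the authors' total and 85 with 12 libraries; the cause of these losses was not tested. By limma no member fell in the lists of interneuron identity, deep layers, calcium channels, neuropeptide receptors, astrocytes, myelin, hippocampus, piriform cortex, unfolded protein response, glycolysis, cholesterol, antioxidants, p53 and Wnt signalling, each of which had falls by edgeR. For the change with age, DESeq2 gave 39 higher and 88 lower genes against 0 and 0, and each fit without a library gave 0 to 0. For the difference between tissues, DESeq2 gave 75 and 110 against 10 and 23, limma gave 0 and 1, and leaving out a library gave 0 to 3 and 1 to 2. No named gene past the threshold changed its direction in any alternative run. No paired analysis was possible because each library has its own number in the labels and the groups compared share none. Depth limits the lowest genes: Pax2, at 0.640 RPKM in R6/2 replicate 1, rested on 34 counts.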
